A study of Mus musculus with 24 samples.

Results

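The genes described here encode subunits of potassium, sodium, calcium and pacemaker channels, measured in hearts of mice after ischemia-reperfusion (I/R) or sham surgery. They were chosen by name: every gene on the array whose symbol begins with Kcn, with Scn and a digit, with Cacn, or with Hcn and a digit. This gave 126 of the 27962 genes or transcripts on the array, each represented by 1 probe, the one with the highest mean heart signal. The rule also takes in Kcnq1ot1, a noncoding RNA, and it misses 1 potassium channel gene, Kcnk10, which the array lists under an older name. Of the 126, 31 could be tested, since every array of 1 group or more had a heart signal clear of background by the scanner flag.

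MuRF1 Tg+ mice and wild-type (MuRF1+/+) mice, 12 to 16 weeks old, had I/R surgery, in which the left anterior descending (LAD) coronary artery is tied and then released, or sham surgery. MuRF1, encoded by Trim63, is a ubiquitin ligase of striated muscle. There were 3 hearts each of MuRF1 Tg+ I/R, wild-type I/R, MuRF1 Tg+ sham and wild-type sham, and each heart gave a piece from below and a piece from above the tie or its sham site, so 12 hearts filled 24 arrays. Heart RNA was labelled with Cy5 and set on each array against 1 shared Cy3 standard, RNA pooled from whole C57BL/6 pups at day 1. What drives the transgene, and how long reperfusion lasted, the sources used here do not give. The design text calls the 3 hearts of a group biological replicates.

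The beating of a heart cell depends on these channels. Sodium channels open first and carry the rapid upstroke of the action potential, L-type calcium channels then admit the calcium that starts contraction, and several kinds of potassium channel return the membrane to rest. In mouse ventricle repolarization is fast and rests on transient outward and delayed rectifier potassium currents, while inward rectifiers hold the resting potential. Pore-forming subunits conduct the ions, and beta, alpha2delta, gamma, KChIP and Kcne subunits adjust their number at the membrane and their gating. Messenger RNA levels of these subunits were measured here, not channel protein or current.

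Each gene's value rests on 1 probe of 60 bases. The first 30 bases of the probes behind 4 potassium channel falls on which many of the results turn, and of the L-type calcium channel pore, are shown so that the transcript measured can be traced.
Kcnk3 (chromosome 5): ctgggaaatccttaggtggaaggaatctgg
Kcnj11 (chromosome 7): agaaaaagaaatattgggaagttcagcctg
Kcnj12 (chromosome 11): tagtctttttcatgttttttcgcagtagct
Kcnd2 (chromosome 6): aaatatactgtgttggtggtgaatgacttt
Cacna1c (chromosome 6): ggtttcatggtttgagggttcttgtcagca

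Some I/R arrays had a dim heart signal, and this touches every result below. Between 9.90% and 38.3% of Cy5 spots were well above background on the 12 I/R arrays, against 34.6% to 43.3% on the 12 sham arrays. The reference channel gave 39.5% to 51.3% and 47.3% to 51.5%. On 5 I/R arrays the share was under 25%: replicates 2 and 3 of MuRF1 Tg+ tissue below the tie, and in wild-type tissue replicate 1 below it and replicates 1 and 2 above it. Only 4 I/R arrays lay within the sham range, at 37.8% to 38.3%: replicate 1 of MuRF1 Tg+ tissue above the tie, and in wild-type tissue replicates 2 and 3 below it and replicate 3 above it. Trim63 itself did not differ by genotype in sham hearts (log2 difference -0.02, SE 0.31, limma adjusted p = 1.00). Whether its probe lies in the transgene is not known, so it does not check the genotype labels. Markers of ventricular muscle stood well above the pup pool in every heart: the mean log2 ratio to the pup pool over 11 tested ventricular cardiomyocyte markers was 3.24 to 3.72 in the 6 I/R hearts and 3.83 to 4.09 in the 6 sham hearts.

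Most channel genes were not measurable. Of the 95 that were not above background on all arrays of any group, 77 had a heart signal above background on no array, 16 on 1 to 5 arrays and 2 on more. The pup reference was above background for 14 of the 95 on all 24 arrays. None of the 4 pacemaker channel genes could be tested: Hcn2 was above background on 5 arrays, Hcn3 on 1 and Hcn4 on 1. Kcnj2, which encodes an inward rectifier of the resting potential, was above background on 1 array. Kcnj5 (a partner of Kcnj3 in the acetylcholine-activated channel), Kcna4 and Kcnd3 (pores of transient outward channels), Scn7a, Cacna1d and Cacna1h (calcium channel pores of the L and T type) were above on none. Such a result says only that these probes gave no signal clear of background in the heart channel.

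By class, 9 of 36 voltage-gated potassium pore genes, 5 of 14 inward rectifiers, 2 of 10 two-pore channels, 2 of 8 calcium- or sodium-activated potassium channels and 2 of 15 auxiliary potassium subunits were tested. On the sodium side 2 of 10 pores and 1 of 3 beta subunits were tested. Of the calcium channel genes 3 of 10 pores, 2 of 3 alpha2delta, 2 of 4 beta and 1 of 8 gamma subunits were tested. In sham hearts the signals were steady: 25 of the 31 were above background on all 12 sham arrays. On all 24 arrays 3 were above, among them Cacna1s and Kcnj8.

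The level of each gene in the adult heart was set against the whole pup pool as a log2 Cy5/Cy3 ratio, so that a positive value means more in the heart piece. Each probe has its own dye bias, which stays in the ratio and cancels when the same probe is compared between arrays, so the order of genes below is descriptive. Over the 6 wild-type sham arrays the ratio was positive for 23 of the 31 genes. Among the highest mean ratios were those of Kcnk3, a two-pore background potassium channel, at 1.82 (lowest array 1.65, highest 1.94), and Kcnj11, the pore of the ATP-sensitive potassium channel of heart muscle, at 1.70 (1.53 to 1.81). Kcnj12, an inward rectifier, had 1.45 (1.24 to 1.68), and Kcnq1, the pore of the slow delayed rectifier, had 1.31 (1.16 to 1.40). All of these gave more signal in the adult heart than in the pup pool.

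At the other end were genes known from other excitable tissues. Scn3b, a sodium channel beta subunit, had a mean of -2.20 (-2.31 to -2.05). Cacna1s and Cacng1, the pore and gamma subunit of the skeletal muscle calcium channel, had -1.23 (-1.40 to -1.0) and -1.20 (-1.26 to -1.08). Kcna1, a potassium channel best known from neurons, had -0.71 (-0.81 to -0.58), and Cacnb1, the calcium channel beta subunit of skeletal muscle, had -0.68 (-0.76 to -0.53). These genes gave more signal in the pup pool, which holds brain and skeletal muscle, than in the adult heart.

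**Figure D1:**
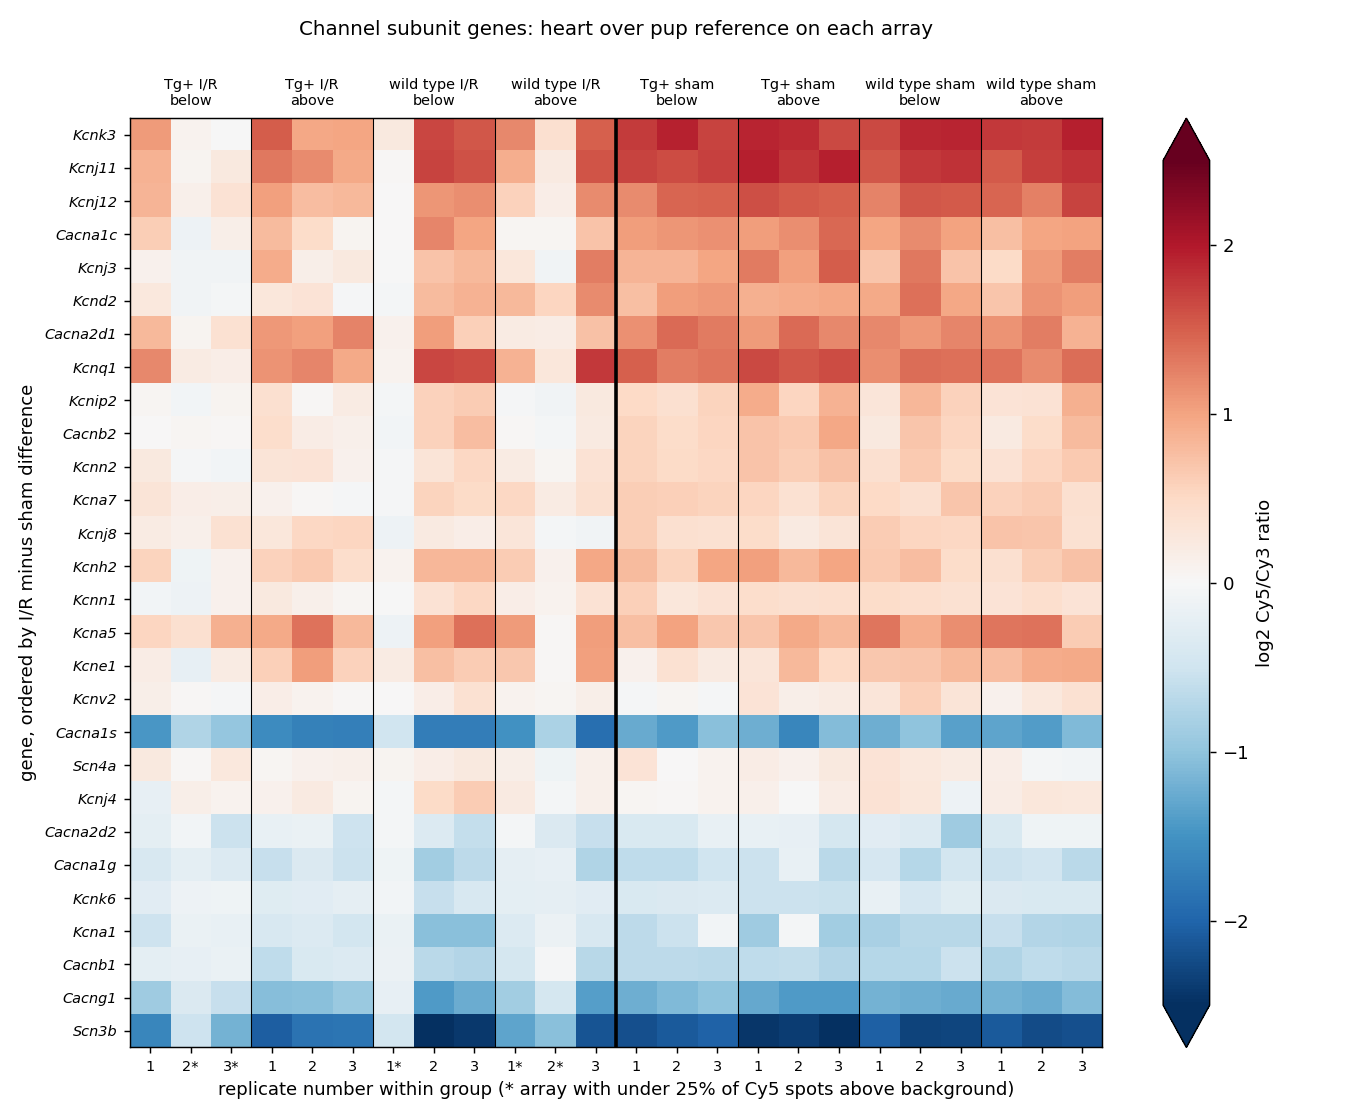
Log2 Cy5/Cy3 ratio (colour, cut at 2.5 in either direction) of 28 tested channel genes (rows) on the 24 arrays (columns, grouped by genotype, surgery and piece, with the replicate number beneath and a star on the 5 arrays with under 25% of Cy5 spots above background). Averaged over arrays, each row is paler on the starred I/R arrays than on the other I/R arrays.

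Injury was tested on heart means, the average of both pieces of each heart, with 6 I/R hearts against 6 sham hearts. Of the 31 channel genes, 21 passed the threshold (limma, Benjamini-Hochberg adjusted p under 0.05 over 11447 features), against 51% of all features. Of these, 17 were lower after I/R (54.8% of the members, against 25.5% of all features) and 4 were higher (25.5% of all features). The median log2 difference of the channel genes was -0.26, against -0.00 over all features. It was -0.09 without 5 I/R arrays of weak heart signal and -0.10 with only the 4 I/R arrays as strong as sham arrays, both described above. Among the 17 were 4 of the 5 tested inward rectifiers, both calcium-activated channels and 6 of the 9 voltage-gated potassium pores. As measured in bulk tissue, fewer cells of a type and less RNA per cell cannot be told apart.

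Kcnk3, the background channel, had the largest estimated fall of the 17. Its heart means were 0.49 (lowest), 0.89 (median) and 1.52 (highest) in I/R hearts, against 1.68, 1.82 and 1.92 in sham hearts, again without overlap, and the difference was -0.87 (SE 0.16, adjusted p = 0.00115). Kcnj11 had 0.47, 0.79 and 1.58 in I/R hearts and 1.54, 1.77 and 1.82 in sham hearts. Here 1 I/R heart reached into the sham range, and the difference was -0.85 (SE 0.16, adjusted p = 0.00155).

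Of the other 4 tested inward rectifiers, Kcnj12, Kcnj3 and Kcnj8 fell and Kcnj4 did not pass. Kcnj12 had 0.29, 0.61 and 1.18 in I/R hearts, against 1.35, 1.45 and 1.60 in sham hearts, which did not overlap, for a difference of -0.78 (SE 0.14, adjusted p = 0.00101). Its heart signal was above background on 8 of 12 I/R arrays and on all 12 sham arrays. Kcnj3, the acetylcholine-activated channel subunit that is most abundant in atrium, fell by 0.65 (SE 0.16, adjusted p = 0.00717). Its reference signal was above background on no array and its heart signal on 17 of 24, among them all sham arrays. On those 17 its ratio is a lower bound on heart over pup. On the rest, all of them I/R arrays, neither signal was above background and the ratio is not a measured level. Its hearts overlapped, at 0.04 to 1.04 after I/R and 0.59 to 1.25 after sham surgery. Kcnj8, the ATP-sensitive channel pore of vascular cells, fell by 0.29 (SE 0.06, adjusted p = 0.00244). Kcnj4, an inward rectifier near its detection limit, had a difference of 0.00 (SE 0.07, adjusted p = 0.967).

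The transient outward current of mouse ventricle is built by Kcnd2 with the calcium-binding subunit Kcnip2, and both were lower. Kcnd2 had -0.03, 0.33 and 1.02 in I/R hearts and 0.81, 0.99 and 1.25 in sham hearts, overlapping at the highest I/R heart, with a difference of -0.57 (SE 0.11, adjusted p = 0.00182). Kcnip2 fell by 0.42 (SE 0.10, adjusted p = 0.00446), on a probe whose reference signal was above background on no array and its heart signal on 16. Among I/R arrays its heart signal was above background only on the 4 as strong as sham arrays, so the size of the fall is not well measured. With only those I/R arrays Kcnip2 did not pass. Among the delayed rectifiers, Kcnq1 fell by 0.47 (SE 0.17, adjusted p = 0.0425), and Kcnh2, the pore of the rapid delayed rectifier, fell by 0.26 (SE 0.10, adjusted p = 0.0428). Both stood near the threshold. Kcne1, the partner of Kcnq1, had -0.12 (SE 0.09, adjusted p = 0.263) and Kcna5, the ultrarapid delayed rectifier pore, had -0.19 (SE 0.13, adjusted p = 0.218). Kcnv2, a silent subunit that modifies other potassium pores, had -0.12 (SE 0.06, adjusted p = 0.0985).

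Smaller falls came from Kcna7, a potassium pore of striated muscle (-0.30, SE 0.05, adjusted p = 0.000518, without overlap between hearts), and from Kcnn2, a small-conductance calcium-activated channel (-0.37, SE 0.07, adjusted p = 0.00191). Kcnn1, of the same family as Kcnn2, fell by 0.26 (SE 0.06, adjusted p = 0.00553). The only potassium channel gene above the threshold upward was Kcnk6, a two-pore channel, at 0.13 (SE 0.05, adjusted p = 0.0455).

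The L-type calcium channel of heart muscle is a complex of a pore (Cacna1c), a beta subunit (Cacnb2) and an alpha2delta subunit (Cacna2d1), and all 3 genes were lower after I/R. Cacna1c had heart means of 0.03, 0.40 and 0.84 in I/R hearts, against 0.87, 1.06 and 1.30 in sham hearts. The groups did not overlap, though by a narrow gap, and the difference was -0.66 (SE 0.14, adjusted p = 0.00328). Cacna2d1 had 0.16, 0.64 and 0.95 in I/R hearts and 1.05, 1.17 and 1.42 in sham hearts, also without overlap, with a difference of -0.57 (SE 0.10, adjusted p = 0.00109). Cacnb2 fell by 0.38 (SE 0.09, limma adjusted p = 0.00719), on a probe whose reference signal was above background on no array and its heart signal on 15. Among I/R arrays its heart signal was above background only on the 4 as strong as sham arrays, so the size of this fall is not well measured. The reference signal of Cacna1c was above background on 9 arrays. All 3 genes no longer passed with only the I/R arrays as strong as sham arrays. In all, 6 of the 31 tested channel genes had hearts that did not overlap between surgeries, against 23.2% of 11443 features. Kcnk3, Kcnj12, Kcna7, Cacna1c and Cacna2d1 were among them, and all 6 had passed the test. Separate hearts were thus no more common in channel genes than in all features.

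The skeletal muscle calcium channel genes did not follow the cardiac ones. The ratio of Cacnb1 was 0.28 higher after I/R (SE 0.07, adjusted p = 0.00836) and that of Cacng1 0.35 higher (SE 0.11, adjusted p = 0.0191). Cacna1s had -0.10 (SE 0.13, adjusted p = 0.524). The heart signals of Cacnb1 and Cacng1 were above background on all 12 sham arrays but on none of the 5 weak I/R arrays. There the ratio is not a measured level, so a higher ratio need not mean more of these transcripts. Markers of skeletal muscle went both ways: 4 of 8 were higher and 2 lower, the latter Ckm (-0.83) and Myh4 (-0.70). Their mean log2 ratio was -2.34 to -1.53 in I/R hearts and -2.36 to -2.12 in sham hearts. Without the 5 weak arrays 1 of these markers was higher and 2 lower. The part of the skeletal muscle markers in these results was not tested. Cacna1g, the T-type calcium channel pore, had 0.09 (SE 0.08, adjusted p = 0.380) and Cacna2d2 had 0.02 (SE 0.10, adjusted p = 0.890). On the sodium side, Scn3b was 0.65 higher (SE 0.20, adjusted p = 0.0175), at -2.28, -1.64 and -0.89 in I/R hearts against -2.32, -2.25 and -2.07 in sham hearts. Scn4a, the skeletal muscle sodium channel pore, had -0.04 (SE 0.05, adjusted p = 0.584).

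**Figure D2:**
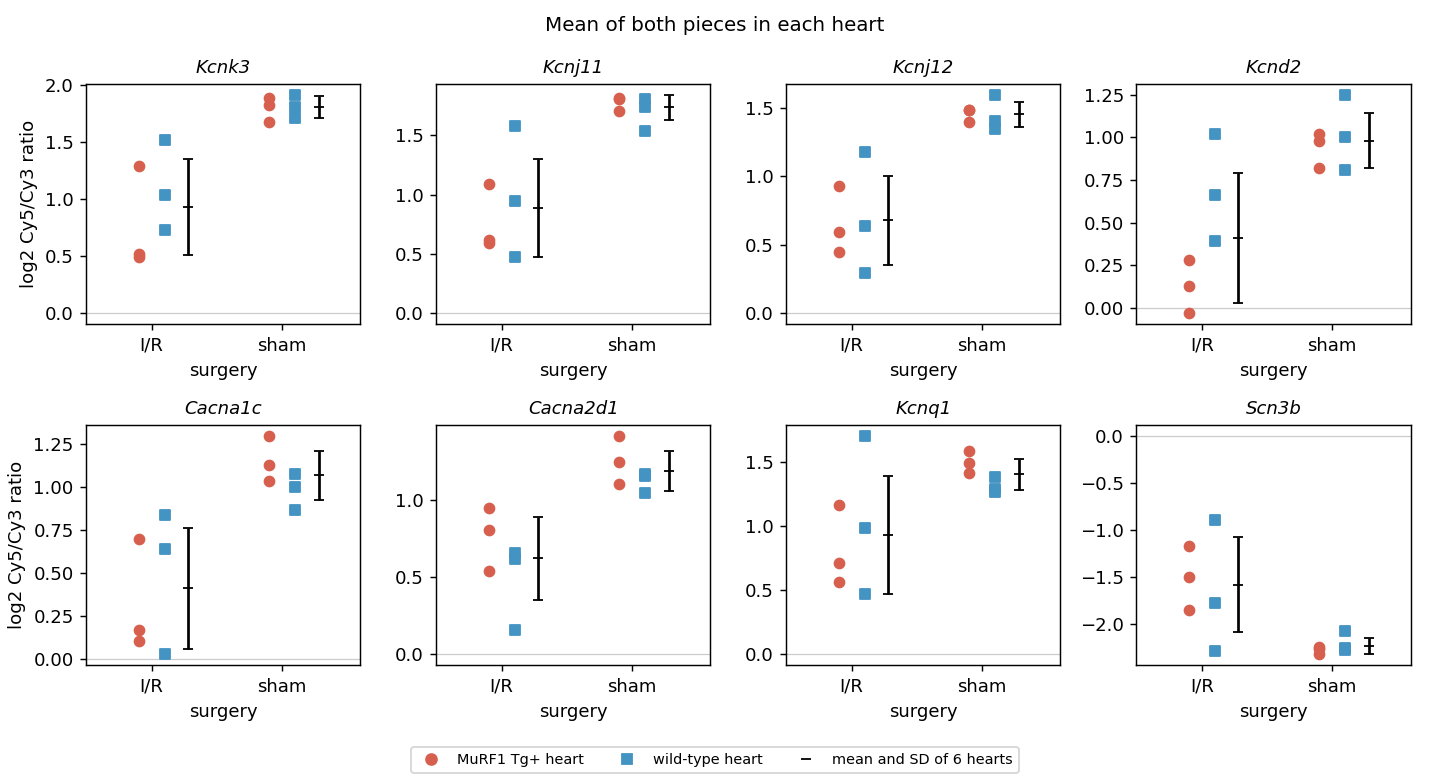
Heart means (log2 Cy5/Cy3, mean of both pieces) of 8 channel genes in the 6 I/R hearts (left) and 6 sham hearts (right) of each panel, by genotype, with the mean and SD over 6 hearts. Kcnk3, Kcnj12, Cacna1c and Cacna2d1 do not overlap between surgeries, while Kcnj11, Kcnd2, Kcnq1 and Scn3b do.

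The size of these changes moved with the strength of the array. Every one of the 17 genes that fell had a positive sham ratio, and every one of the 4 that were higher had a negative one, so in both cases the I/R ratio lay nearer to 0. Over all features the same tendency was present: 43.5% of those with a positive sham ratio were lower after I/R and 6.79% higher, and 48.3% of those with a negative one were higher and 3.60% lower. The sham values enter both the ratio and the difference, so this is a description. Without the 5 weak arrays, which removes wild-type I/R heart 1 entirely, 15 channel genes passed, 14 lower and 1 higher, against 36.4% of all features. Among the 21, Kcnq1 (-0.00), Kcnh2 (-0.03), Cacna2d1 (-0.23), Scn3b (0.12), Cacng1 (0.04) and Kcnk6 (0.03) no longer passed, and Cacna1s (-0.44) passed in addition. Falls that still passed shrank to -0.47 for Kcnk3, -0.47 for Kcnj12, -0.39 for Kcnj11 and -0.35 for Cacna1c.

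**Figure D3:**
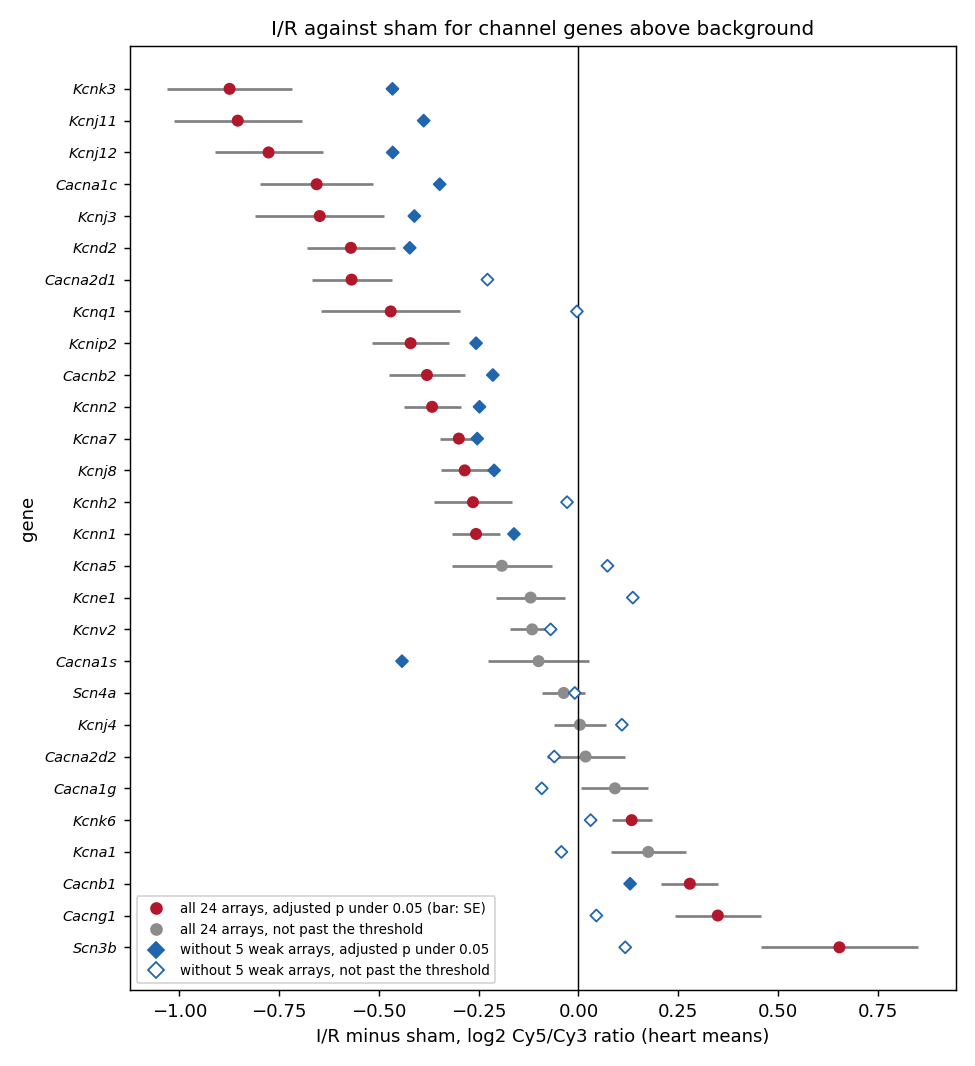
I/R minus sham difference of heart means (log2 Cy5/Cy3) for 28 tested channel genes with all 24 arrays (circles, bar the SE) and without the 5 weak I/R arrays (diamonds), filled where the adjusted p was under 0.05. Most points move toward 0 without the weak arrays, Kcnq1 lying at -0.00 there and at -0.47 with them, while Kcnk3 and Kcnj12 lie at -0.47 there and Cacna1s moves away from 0.

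A stricter selection, chosen after the data were seen, kept only the 4 I/R arrays within the sham range of heart signal. They come from 3 hearts, only 1 of them MuRF1 Tg+, so the test there leans on the spread of the other groups. With these, 9 channel genes passed (29% of the 31, against 30.4% of all features), all of them lower. Among them were Kcnj12 (-0.38, adjusted p = 0.00196), Kcna7 (-0.24, adjusted p = 0.00544), Cacna1s (-0.41, adjusted p = 0.00631), Kcnj11 (-0.26, adjusted p = 0.0146), Kcnd2 (-0.38, adjusted p = 0.0150), Kcnj8 (-0.28, adjusted p = 0.0178), Kcnk3 (-0.25, adjusted p = 0.0226) and Kcnn2 (-0.21, adjusted p = 0.0272). Of the 9, Cacna1s alone was not among the 17 falls.

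On these 4 arrays Kcnj12 read 1.02 to 1.19 and lay below every sham array (1.19 to 1.68), by a very small gap. In all, 2 channel genes lay below the sham range on all 4 arrays and 0 above it, and over all features 5.47% lay below it and 4.65% above it on all 4. Kcnk3 read 1.49 to 1.67 against 1.65 to 1.94, and Kcnj11 1.32 to 1.68 against 1.53 to 1.95, so both overlapped slightly. Cacna1c (0.71 to 1.23, against 0.75 to 1.44), Kcnq1 (1.12 to 1.76, against 1.16 to 1.66) and Scn3b (-2.51 to -2.06, against -2.49 to -2.03) overlapped broadly. Kcnq1 (0.00, adjusted p = 0.997), Scn3b (0.01, adjusted p = 0.948) and Cacna1c (-0.15, adjusted p = 0.253) did not pass in this selection.

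**Figure D4:**
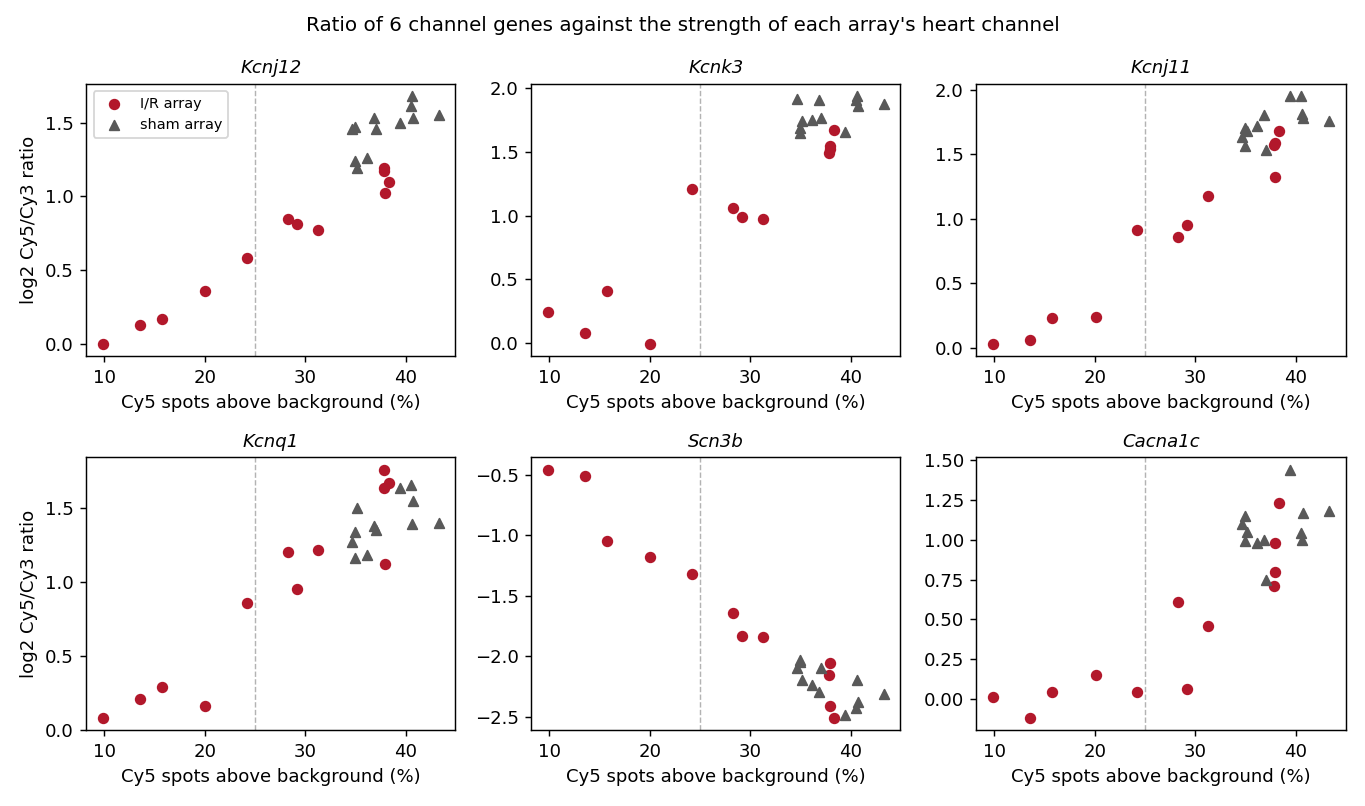
Log2 Cy5/Cy3 ratio of 6 channel genes on each of the 24 arrays against the percent of Cy5 spots well above background on that array, with I/R arrays as circles, sham arrays as triangles and a dashed line at 25%. Ratios of Kcnk3, Kcnj11, Kcnq1, Scn3b and Cacna1c on I/R arrays reach the sham range toward 38%, while those of Kcnj12 come up to its lower edge, at 1.02 to 1.19.

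Other probes of the same genes gave the same direction where they could be read. A second probe was above background for 8 tested genes. For the 6 of these that had passed, it also gave lower I/R ratios: Kcnk3 -0.56, Kcnj8 -0.51, Cacna1c -0.57, Kcnd2 -0.50, Cacna2d1 -0.40 and Cacnb2 -0.14. The 2 further probes of Scn3b and the second probe of Kcnq1 were above background on no array and gave smaller differences (0.10 and -0.01 for Scn3b, 0.01 for Kcnq1), so these results rest on 1 probe each. The scaling also mattered. When arrays were centred on their median in place of the loess curve, the median difference of all features was itself -0.40 and that of the channel genes was -0.38, so the channel genes as a set were then no lower than other genes. In that scaling 22 channel genes passed and all were lower, as 64.8% of all features passed and 1.12% of those were higher. Kcnj12 (-0.99) and Kcnk3 (-1.42) remained below the shift of all features while the 4 that had been higher were negative, though above that shift, at -0.11 to -0.18. With Agilent's own ratios the medians were -0.76 for the channel genes and -0.19 for all features.

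Arrays that shared a slide gave 4 pairs of an I/R and a sham array of the same genotype and piece, 2 of them with a weak I/R array. They come from 3 pairs of hearts, since both MuRF1 Tg+ pairs are the 2 pieces of the same 2 hearts. Of the 21 genes that passed, 8 kept their direction in all 4 pairs, among them Kcnj12, Kcnk3, Kcnj11, Kcna7, Cacna1c, Cacna2d1 and Cacng1. Kcnj12 differed by -1.35 and -0.88 in the pairs with a weak array and by -0.73 and -0.36 in the others. With the slide as a block in the fit, 14 channel genes passed (27.3% of all features), all lower, and none of the 4 higher ones did.

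Genes that work beside these channels showed a mixture. Of 17 tested partners of channels outside the name rule, 6 were higher and 6 lower (median 0.02). The lower ones included both sulfonylurea receptors that pair with Kcnj11 and Kcnj8, Abcc8 (-0.78, SE 0.15, adjusted p = 0.00207) and Abcc9 (-0.77, SE 0.10, adjusted p = 0.000142), and Fgf13, which binds sodium channels (-0.59, SE 0.09, adjusted p = 0.000352). The calmodulin genes Calm2 and Calm3 were higher, by 0.60 (adjusted p = 0.000439) and 0.29 (adjusted p = 0.00125). Of 10 tested pumps and exchangers, 6 were lower and 1 higher (median -0.26), among them the sodium-calcium exchanger Slc8a1 (-0.59, adjusted p = 0.0187). Without the weak arrays 2 were lower and 1 higher (median -0.02).

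The calcium-handling genes of the sarcoplasmic reticulum held more of their change. Of 11 tested, 6 were lower and 1 higher (median -0.44), and without the weak arrays 7 were lower and 1 higher (median -0.31). Jph2, which ties the reticulum to the L-type channel membrane, fell by 1.35 (SE 0.20, adjusted p = 0.000411), and Casq2, the calcium buffer, fell by 0.72 (SE 0.11, adjusted p = 0.000631). Atp2a2, the calcium pump, had -0.06 (adjusted p = 0.780). The gene that rose was Sln, a regulator of that pump and an atrial marker, at 2.47 (SE 0.51, adjusted p = 0.00259). Of the connexins, 2 of 5 were lower, Gja1 (-0.60, adjusted p = 0.0298) and Gja3 (-0.50, adjusted p = 0.00180). Of 9 other cation and chloride channels 3 were higher and 2 lower (median 0.02), of 7 transcription factors 1 was higher and 2 lower (median -0.16), and the 1 tested inhibitor of calcium channels, Rrad, had -0.45 (adjusted p = 0.0908).

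Cell markers moved in the same hearts. Of 11 ventricular cardiomyocyte markers, 6 were lower and 1 higher, and without the weak arrays 6 were lower and none higher. Atrial markers were higher for 9 of 10, with a mean log2 ratio of -1.02 to 0.34 in I/R hearts and -1.46 to -0.47 in sham hearts. Neutrophil markers were higher for 4 of 4, at -1.29 to -0.12 and -2.71 to -2.54, and Csf3r was above background on no array. Macrophage (5 of 9), fibroblast (5 of 8), epicardial (3 of 4) and smooth muscle markers (4 of 8, with 2 lower) were higher in part. Of the other lists, endothelial markers were lower for 4 of 11 and higher for 1, pericyte markers lower for 2 of 7 and higher for 1, conduction system markers higher for 2 of 5 and neuron and glia markers higher for 1 of 2, and no lymphocyte marker was tested. Kcnj8 is itself known from pericytes. Of the pericyte markers, Rgs5 fell by 0.95 (limma adjusted p = 0.000157), and Abcc9, which is also a channel partner of Kcnj8, fell too. Cspg4 was 0.23 higher (adjusted p = 0.0216), while Pdgfrb, Notch3, Vtn and Higd1b did not pass. The part of these cell markers in the channel results was not tested.

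The 2 pieces and genotypes were then taken apart, with 3 arrays against 3. In MuRF1 Tg+ tissue below the tie, 14 channel genes passed, 13 lower and 1 higher (32.5% of all features passed, 17.1% lower and 15.3% higher). In MuRF1 Tg+ tissue above it, 7 passed, all lower (15.3% of all features, 8.41% lower and 6.94% higher). In wild-type tissue below the tie 2 passed (5.6% of all features, 3.45% lower and 2.15% higher), and above it 4 (13.3%, 7.3% lower and 5.98% higher), all lower. Kcnj12 passed in MuRF1 Tg+ tissue below the tie and in wild-type tissue above it. Its differences were -0.93 below (adjusted p = 0.0132) and -0.68 above (adjusted p = 0.0815) in MuRF1 Tg+ hearts, and -0.68 below (adjusted p = 0.140) and -0.82 above (adjusted p = 0.0464) in wild-type hearts (SE 0.26 each). These counts are fragile: below the tie in wild type, none passed without I/R replicate 1 or without any 1 of the 3 sham arrays.

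The largest single differences were in MuRF1 Tg+ tissue below the tie, where 2 of the 3 I/R arrays were weak. Kcnk3 read 1.06, 0.08 and -0.01 there, against 1.74, 1.92 and 1.69 in the sham pieces, a difference of -1.41 (SE 0.32, adjusted p = 0.00386). Kcnj11 read 0.86, 0.06 and 0.24, against 1.68, 1.63 and 1.70, a difference of -1.28 (SE 0.33, adjusted p = 0.00832). In both genes the array of replicate 1, the one that was not weak, lay nearest to the sham arrays. Other falls there were those of Kcnj12 (-0.93), Kcnd2 (-0.91) and Cacna1c (-0.88), and the higher ratio was that of Cacnb1 (0.46, SE 0.14, adjusted p = 0.0223). For Kcnj12, Kcnd2, Cacna1c and Cacnb1 only the I/R array of replicate 1 had a heart signal above background, so these sizes are not well measured. Kcnj3 passed too, but it gave no signal clear of background in the 3 I/R pieces, so only a bound can be given, a signal at least 1.57-fold lower (limma adjusted p = 0.0271). Without the weak arrays, which leaves 1 I/R array in this group, 7 channel genes passed (13.5% of all features), with the lone array taken to vary like the other groups, Kcnk3 at -0.73 and Kcnj11 at -0.81.

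In MuRF1 Tg+ tissue above the tie no array was weak. Cacna1c had -0.78 (SE 0.26, adjusted p = 0.0471) and Kcnd2 had -0.72 (SE 0.21, adjusted p = 0.0256). The ratios of Kcnip2 (-0.56), Cacnb2 (-0.54), Kcna7 (-0.46) and Kcnn2 (-0.44) were lower too. For Kcnip2 and Cacnb2 only I/R replicate 1 had a heart signal above background, and the reference signal was above it on no array. The size of these falls is therefore not well measured. Cacna1c and Kcnn2 were not above background on I/R replicate 3. Kcnd2 read 0.28, 0.34 and -0.02 here, against 0.88, 0.92 and 0.96 in the sham pieces. The I/R shares of Cy5 spots above background were 29.2% to 37.9% in this group. In wild-type tissue, Kcnj8 was lower in both pieces, by 0.48 below (SE 0.12, adjusted p = 0.0265) and by 0.54 above (SE 0.12, adjusted p = 0.00740), with Kcnj12 (-0.82, adjusted p = 0.0464) and Cacna2d1 (-0.70, adjusted p = 0.0291) lower above the tie. The difference between pieces in the response was tested directly, and no channel gene passed in either genotype (smallest adjusted p = 0.777 in MuRF1 Tg+ and 1.00 in wild-type hearts). At an unadjusted p under 0.05 this gave 1 gene in MuRF1 Tg+ hearts and 0 in wild-type hearts.

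**Figure D5:**
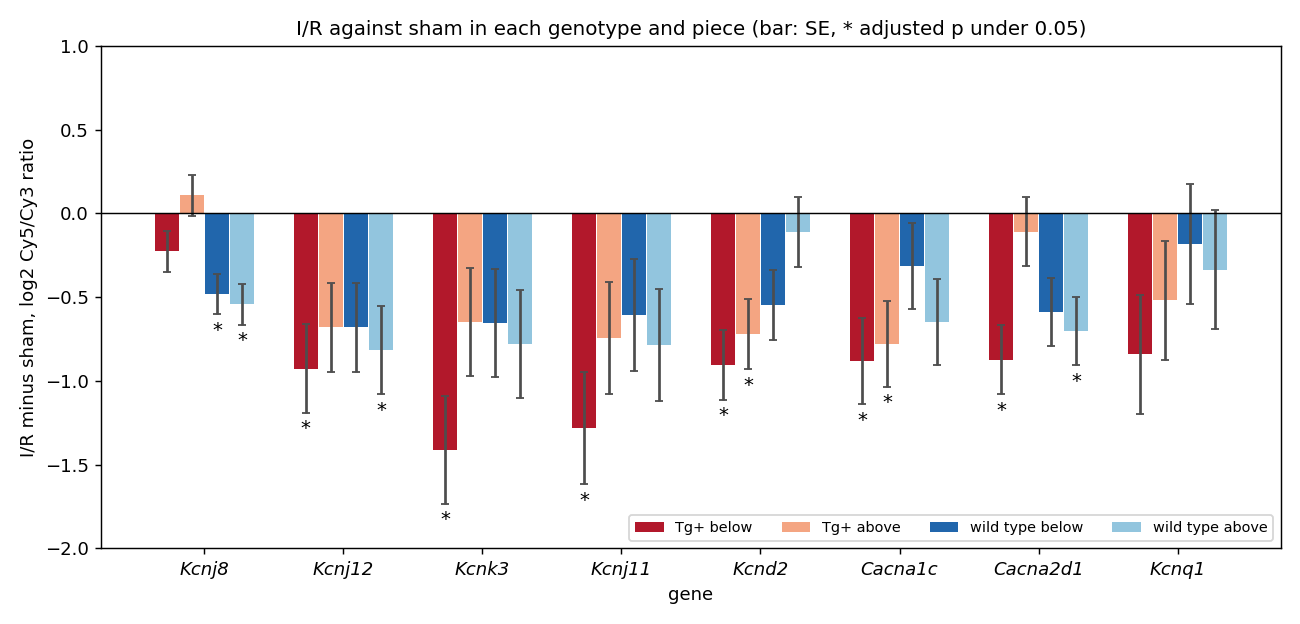
I/R minus sham difference (log2 Cy5/Cy3, bars with SE, 3 arrays against 3) of 8 channel genes in each genotype and piece, with a star where the adjusted p was under 0.05. Kcnj8 carries a star in the wild-type comparisons and not in the MuRF1 Tg+ ones, and the bars of MuRF1 Tg+ tissue below the tie, where 2 of 3 I/R arrays were weak, are the longest for Kcnk3 and Kcnj11.

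The transgene itself was compared in each surgery on heart means, 3 against 3. In sham hearts no channel gene passed between MuRF1 Tg+ and wild type (0.0262% of all features passed). An unadjusted p under 0.05 was found for 2 of the 31, against 2.91% of all features. These were Kcne1, lower by 0.41 (0.21, 0.61 and 0.36 in MuRF1 Tg+ hearts, 0.72, 0.82 and 0.87 in wild-type hearts, adjusted p = 1.00), and Kcnv2, lower by 0.21. Neither is called here.

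In I/R hearts no channel gene passed either (1.17% of all features passed). Of the 31, 4 had an unadjusted p under 0.05, against 17.2% of all features, so channel genes did not stand out. Kcnd2 came nearest, at 0.28, 0.13 and -0.03 in MuRF1 Tg+ hearts against 0.39, 0.66 and 1.02 in wild-type hearts. The difference was -0.57 (SE 0.16, limma adjusted p = 0.0997). It passed with the heart as a random block (adjusted p = 0.0424) and with the slide as a block (-0.67, adjusted p = 0.0406). It did not pass with median centring (-0.48, adjusted p = 1.00). Kcnj8 went the other way, at 0.25, 0.32 and 0.45 in MuRF1 Tg+ hearts and 0.08, 0.09 and 0.04 in wild-type hearts (0.27, SE 0.08, adjusted p = 0.121). Without the weak arrays 18 channel genes passed (58.1% of the 31, against 21.2% of all features), 13 lower and 5 higher in MuRF1 Tg+, with Kcnd2 at -0.71 (adjusted p = 0.00884). The arrays left were not balanced: 1 below and 3 above the tie at 28.3% to 37.9% of Cy5 spots above background in MuRF1 Tg+, and 2 below and 1 above at 37.8% to 38.3% in wild type. Genotype, piece and array strength cannot be told apart in that selection.

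Whether the response to I/R depended on genotype was tested as an interaction. No channel gene passed in limma (0.0175% of all features passed, smallest adjusted p = 0.266). There were 3 of the 31 with an unadjusted p under 0.05, against 12.3% of all features. Kcnj8 had the smallest p, with a response 0.45 higher in MuRF1 Tg+ than in wild type (SE 0.12), and Kcnh2 had one 0.46 lower (SE 0.20, adjusted p = 0.387). Leaving out the weak arrays gave 6 genes (19.4% of the 31, against 5.41% of all features), with the same imbalance. The pieces were also compared within surgery, over both genotypes. Below minus above, no channel gene passed in I/R hearts (0.175% of all features passed), where 2 had an unadjusted p under 0.05, among them Kcne1 (-0.36, adjusted p = 0.399). None passed in sham hearts either (0% of all features passed). The spread used there is shared with the I/R arrays and too wide for sham groups, so this test can miss differences by position. In sham hearts 0 channel genes had an unadjusted p under 0.05, against 0.515% of all features.

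Promoter sequence was looked at for members that moved together. RefSeq windows (build GRCm38.p6, 250 bases before to 30 after a start site) were at hand for 17 of the 31 tested genes and for 11 of the 17 that fell. The box CCACCC, or GGGTGG on the other strand, which factors of the KLF and Sp families can bind, was present in 9 of these 11 and in 11 of the 17, against 32.7% of 27025 genes. The E-box CACGTG, the GATA box AGATAA and the AP-1 site TGACTCA, each read on both strands, were in none of the 17 windows' genes and in 7.7%, 12.2% and 5.7% of all genes. A match is only a run of letters and not a site in use. The windows of 3 genes that stayed lower on full-strength arrays are shown with matches to the first box in capitals.
Kcnj12 (chr11:61065554-61065833, plus strand): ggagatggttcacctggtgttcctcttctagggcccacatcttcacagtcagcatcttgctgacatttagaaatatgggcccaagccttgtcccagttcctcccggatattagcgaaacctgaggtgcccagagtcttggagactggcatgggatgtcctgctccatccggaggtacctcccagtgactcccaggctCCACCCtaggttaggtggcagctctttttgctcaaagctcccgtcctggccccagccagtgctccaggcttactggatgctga
Kcnd2 (chr6:21215096-21215375, plus strand): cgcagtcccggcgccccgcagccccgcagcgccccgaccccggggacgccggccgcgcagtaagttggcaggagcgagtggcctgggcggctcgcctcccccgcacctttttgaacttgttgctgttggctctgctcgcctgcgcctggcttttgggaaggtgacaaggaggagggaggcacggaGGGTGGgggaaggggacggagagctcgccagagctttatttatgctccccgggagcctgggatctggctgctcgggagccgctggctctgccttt
Kcnj8 (chr6:142571585-142571864, minus strand): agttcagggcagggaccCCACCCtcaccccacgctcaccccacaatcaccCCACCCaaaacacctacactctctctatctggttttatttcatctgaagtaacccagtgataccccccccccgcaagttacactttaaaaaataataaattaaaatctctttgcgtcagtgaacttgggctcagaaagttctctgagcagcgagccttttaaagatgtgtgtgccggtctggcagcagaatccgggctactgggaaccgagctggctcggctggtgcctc
The Kcnj8 window holds 2 matches and the others 1 each. Their GC content is 56.1% for Kcnj12, 68.9% for Kcnd2 and 51.4% for Kcnj8, against a median of 52.5% over all windows. Of the other falling genes with the box, the windows holding it had 80.4% (Cacna2d1), 73.6% (Kcnh2), 72.5% (Cacnb2) and 67.1% (Kcnip2). Those of Kcnn1 had 62.9% and 63.2%, and that of Kcna7 had 49.3%. The share with the box was not compared at like GC content.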

How the data were processed

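Each of the 24 heart pieces has its own two-colour Agilent array, with the heart in Cy5 and the pup pool in Cy3, per the labels, and no dye swap. Both the dye field and the source field of the heart say Cy5, but the text on how heart RNA was labelled says Cy3-CTP. If the heart were in Cy3, every ratio, difference and heart-over-pup rank would turn its sign. The mean Cy5/Cy3 ratio over 11 ventricular markers was far above 0 in every heart, and Cy5 was taken as the heart. From each sample 50 ng of RNA was amplified. Per the file headers, Feature Extraction 9.5.3.1 wrote, for every spot, the deposited intensity and local background of both dyes, quality flags, and log10 of Cy5 over Cy3. A further deposited table holds values on the log2 scale of the same ratio, as a comparison of each column with its own array showed (correlation 0.986 to 0.999, column medians -0.11 to 0.14). How it was centred is unknown.

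With limma 3.58.1 (R 4.3.3), background was corrected by normexp with an offset of 50, which shrinks the ratio of a dim spot toward 0. Loess normalization within arrays gave no weight to control spots or to spots with an outlier flag. No spot was saturated. Spots of a probe were averaged, and each gene was taken by its probe of highest mean Cy5 signal. A gene was kept where the Cy5 flag of that probe was above background throughout 1 group or more. It also needed a value in every group, which left 11447 of 27962 features. Of the 126 channel genes, 102 matched RefSeq by accession and none changed symbol.

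Heart means (12 hearts, 4 groups, 8 residual degrees of freedom) were used for surgery, genotype and their interaction, and the 24 arrays (8 groups, 16 degrees) for pieces. P-values were adjusted by Benjamini-Hochberg over all features of a comparison, with 0.05 as the threshold. Scripts were checked on simulated data. Pairing of the pieces of a heart comes from the design text and the shared replicate numbers: their deviations from the group means correlated at -0.73 to 0.54, over 0.1 in 8 of 12 hearts. No 2 arrays held identical values. The number of arrays limits the precision. The median within-group SD was 0.16 on I/R and 0.088 on sham arrays, so a shared spread is too narrow for I/R groups and too wide for sham groups.

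The genes and lists were chosen with earlier results of these data known. Named are up to 15 rises and 15 falls past the threshold in the heart comparison, up to 6 each in the others, 30 cardiac channel genes where measured, and the 5 highest and 5 lowest wild-type sham ratios. Kcnn1, Kcnj4, Cacna2d2, Scn4a and Hcn3, outside this rule, were named after their values were seen. Some genes that the rule takes in are not reported here, 3 of them tested, and are counted but not named or drawn.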

Additional observations from a re-analysis of the deposited data

How the results depend on the processing

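Counts below are of channel genes past the threshold. For I/R against sham on heart means (21), they were 27 with array weights, 22 with median centring and with the Cy5 channel alone (an alternative added after seeing the data), 20 without background subtraction, 19 with Agilent's log ratio and with the deposited value table (1 higher, 18 lower in both), 15 without the weak arrays, 14 with slide as a block, 9 with only the I/R arrays in the sham range (also added after seeing the data), and 18 to 24 with each heart left out. Without a filter on dim probes all 126 channel genes were tested, and 27 passed (11 higher, 16 lower), 21.4% of them, against 23% of 27961 features. Of all features, 70.5% passed with array weights, 64.8% with median centring, 51.9% without background subtraction and 49.2% with the Cy5 channel alone. The share was 43.3% with Agilent's log ratio, 43.2% with the value table, 36.4% without the weak arrays and 27.3% with slide as a block. Kcnq1 was lost in 10, Kcnh2 in 9 and Kcnk6 in 8 of the 12 fits with a heart left out. Over all features the count was 5840, against 3124 with slide as a block, 3483 with the sham-range arrays and 8069 with array weights. With median centring the 4 rises turned negative (Cacnb1 -0.12, Cacng1 -0.18, Kcnk6 -0.13, Scn3b -0.11), and so did 3 with Agilent's log ratio and with the value table (Cacnb1 -0.11, Cacng1 -0.0042, Kcnk6 -0.16). With the sham-range arrays Kcnq1 was 0.00033. The cause was not tested.

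A percent in brackets is the share of all features that passed in the same setting. Fits with an array or heart left out are given without it. For I/R against sham in wild-type tissue above the tie (4), the count was 1 with median centring (2.46%) and 1 with Agilent's ratio (9.51%). It was 2 with no filter (4.12%), 0 with slide as a block (2.26%), 15 with array weights (39.2%) and 2 with the value table (9.54%). With an array left out it was 2 to 10 (10 without I/R replicate 3). In wild-type tissue below it (2), it was 0 with median centring (0.183%), Agilent's ratio (2.88%), slide (0.218%) and the value table (2.93%). It was 1 with no filter (1.5%), 5 without the weak arrays (11.8%), 5 with array weights (16.8%) and 0 to 3 with an array left out. In MuRF1 Tg+ tissue above it (7), it was 4 with median centring (4.94%), 1 with Agilent's ratio (6.41%), 2 with no filter (4.64%) and 0 with slide (3.17%). It was 19 without the weak arrays (41.7%), 20 with array weights (46.1%) and 1 with the value table (6.5%). With an array left out it was 0 to 7 (0 without I/R replicate 3 and without sham replicate 1 or 3). In MuRF1 Tg+ tissue below it (14), it was 0 with slide (2.11%) and 6 to 15 with an array left out. The count was 6 without I/R replicate 3, 7 without I/R replicate 2 and 9 without sham replicate 1. MuRF1 Tg+ against wild type in I/R hearts (0) gave 3 with slide (8.61%), 18 without the weak arrays (21.2%) and 7 with array weights (25.7%). It gave 1 with the replicate block (3.73%) and 0 to 3 with a heart left out (3 without MuRF1 Tg+ I/R heart 1). In sham hearts (0) it gave 2 with array weights (0.987%) and 0 to 0 with a heart left out. The interaction (0) gave 6 without the weak arrays (5.41%), 7 with array weights (20.5%) and 0 to 1 with a heart left out. Below against above gave 0 in each such fit in either surgery.

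With the replicate block (heart as a random effect, consensus correlation 0.077), 20 genes passed in I/R against sham on heart means, against 53.5% of all features. Of these 4 were higher and 16 lower, with Kcnh2 lost. Apart from Kcnh2 and Kcnd2 above, the count of calls was the same with the block in the other comparisons. Dim signal limits what can be seen: 95 of 126 channel genes were not measurable.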
